A study of Glycine max with 12 samples.

Results

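The effect of heat on leaf gene expression in soybean (Glycine max) was measured by setting every heated leaf library against every unheated one, with the water state of the plants as a second factor. The comparison took in 6 heated and 6 unheated libraries, which are all 12 libraries of the series. It covered 33119 of the 55051 genes listed, those whose normalized count averaged 10 or more over the 12 libraries. A normalized count is the number of reads of a gene divided by a scaling factor of its library.

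All plants were wild type, of the cultivar Magellan (PI595362), and were raised in growth chambers. The unheated libraries came from 3 untreated control samples and 3 samples under water deficit, and the heated libraries from 3 samples under heat stress and 3 under combined stress, which is heat together with water deficit. Plants of the control and heat stress groups are called watered here, because their labels name no water deficit. The labels do not give the temperature, the length of the treatments, the hour of harvest or the number of plants behind a library, and nothing in them says that the 3 samples of a group were separate plants, so that p-values measure the spread between these samples, which may be technical.

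Heat unfolds proteins, and plant cells answer with heat shock factors, transcription factors that bind the promoters of chaperone genes. Small heat shock proteins hold unfolding proteins in solution, and the larger HSP70, HSP90 and BiP chaperones fold and refold them with the help of co-chaperones. In leaves, carbon fixation is among the processes most sensitive to heat, because Rubisco activase, the enzyme that keeps Rubisco active, is itself unstable when hot.

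Depth was 26077068 to 46186226 reads per library, and 36790 to 39367 genes had at least 1 read. The 8 markers of leaf all passed the filter on low values, whereas all 13 seed markers failed it, 12 of them with no read in any library. Of 19 nodule and root markers, 12 had no read, among them the leghemoglobins LBC1, LBC2 and LBC3, and 2 passed the filter. Some of this list was expressed, as its normalized counts summed to 3566 to 11393 in unheated and 633 to 13786 in heated libraries. The heated libraries were not alike in their clock genes, which follow the time of day. A clock index was formed by subtracting the average log2 level of 8 evening genes from the average of the 3 morning genes LCL1, LCL3 and LCL4. Heat stress library 3 had an index of 3.85, and combined stress libraries 2 and 3 had 2.87 and 2.76. The other 3 heated libraries lay between -1.33 and -0.17 and the 6 unheated ones between -0.05 and 1.05. Counts for several gene lists, and the named genes whose call depended on either set of 3 heated libraries, are therefore given without it as well. The set of high clock index is mostly combined stress and the other set mostly heat stress. The clock index of the 2 sets is therefore partly confounded with their water state, although each set holds libraries of both heated groups.

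Heat changed a large part of the leaf transcriptome, in both directions about equally and mostly by modest amounts. The sharpest increases were in chaperone genes, in heat shock factors and in genes without a name, several of which were nearly silent in unheated leaves. The decreases included 2 ferritins, several glutathione transferases and several flavonoid enzymes. With limma on log2(normalized count + 1) and Benjamini-Hochberg adjustment, 6810 genes (20.6% of those tested) had an adjusted p under 0.05, which is what is meant by called below. Of these, 3326 (10%) were higher in heated leaves and 3484 (10.5%) were lower.

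Among the called genes, 4146 (60.9%) changed by less than 2-fold. A change of at least 2-fold was found in 1063 genes that were higher and 1601 that were lower, together 8.04% of the genes tested. At 4-fold or more there were 220 higher and 459 lower, whereas at 16-fold or more the increases outnumbered the decreases, with 30 against 17. The median change of called genes was 0.78 on the log2 scale for those higher and -0.93 for those lower, and the median over all genes tested was -0.03. In 2729 genes (8.24%) no heated library overlapped any unheated library, of which 1473 (4.45%) were higher and 1256 (3.79%) lower. The genes named below for their large changes were picked from such genes, so their lack of overlap is no further support. In the same fit, the water state called 2290 genes, 1153 of them higher and 1137 lower under deficit.

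Small heat shock protein mRNAs were the gene list with the largest median increase. Of 12 members, 10 passed the filter on low values. Of these, 8 (80%) were higher in heated leaves and 0 lower, against 10% and 10.5% of all genes tested. The median log2 change was 3.72, against -0.03 over all genes tested. The 3 largest belong to genes close to silence in unheated leaves. HSP17.3-B had normalized counts of 3.55 to 12.6 in the 6 unheated libraries (median 7.15) and 67.0 to 850.0 in the 6 heated ones (median 422). The heated and unheated libraries did not overlap, and the log2 change was 5.35 ± 0.54 (SE, n = 6 against 6, limma adjusted p = 0.00013). HSP17.5-M ran from 0.915 to 6.17 unheated and from 32.8 to 732 heated, a log2 change of 5.24 ± 0.68 (adjusted p = 0.000536). HSP6834-A ran from 2.75 to 15.7 and from 54.2 to 1274, a log2 change of 5.20 ± 0.65 (adjusted p = 0.000468).

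HSP17.5-E differed from these in that its mRNA was already present without heat. Its normalized counts were 126, 142 and 218 in control, 42.0, 35.7 and 51.4 in water deficit, 835, 1222 and 565 in heat stress and 1133, 1442 and 1439 in combined stress. The highest unheated library was a control, and all heated libraries lay above it. The log2 change was 3.66 ± 0.41 (adjusted p = 0.000233). The other members called were HSP22.5 (log2 change 4.98), HSP22.3 (3.77), HSP22.0 (3.07) and HSP18.5-C (2.93).

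HSP23.9 and HSP26-A were tested and not called. HSP23.9 had the highest mean of the list, and its normalized counts were 833 to 3609 unheated (median 998) and 1473 to 13859 heated (median 2555). The ranges overlapped through water deficit library 3, which held the 3609, and the log2 change was 1.36 ± 0.51 (adjusted p = 0.079). HSP26-A had a log2 change of -0.62 ± 0.82 (adjusted p = 0.627). Without any 1 of the 12 libraries, the number of small heat shock proteins called higher was 8 or 9 and the median 3.38 to 4.12. It was 7 without the 3 heated libraries of low clock index and 9 without the 3 of high clock index, where HSP23.9 had a log2 change of 2.41 (adjusted p = 0.00712), against 0.39 (adjusted p = 0.466) without those of low clock index. HSP17.5-M had 4.06 without the libraries of high clock index and 6.33 without those of low clock index.

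The larger chaperones did not share this pattern. Among the 5 HSP70, HSP90 and BiP genes that carry a symbol, HSP70 was the single gene called. Its normalized counts were 194, 299 and 273 in control, 199, 131 and 177 in water deficit, 396, 839 and 1082 in heat stress and 3331, 3689 and 4742 in combined stress. All heated libraries exceeded all unheated ones, and the combined stress libraries stood well above those of heat stress. The log2 change was 3.02 ± 0.48 (adjusted p = 0.00168). GMBIP4, a chaperone of the endoplasmic reticulum, had 2062 to 11392 unheated and 1731 to 14555 heated, and its log2 change of 0.91 ± 0.50 did not pass (adjusted p = 0.213). HSP90-1, with the highest mean count of the 5, had 6522 to 15178 unheated and 3885 to 11389 heated, a log2 change of -0.34 ± 0.30 (adjusted p = 0.45). These calls differed between the heated libraries of high and of low clock index, whose mix of water states differs too. Without the 3 heated libraries of high clock index, GMBIP4 was called higher (log2 change 1.92, adjusted p = 0.0115), and 2 of the 5 genes were higher and 0 lower. Without the 3 of low clock index, HSP90-1 was called lower (-0.91, adjusted p = 0.0211), and 1 gene was higher and 2 were lower.

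Of 3 co-chaperones, BAG6A was called and had the smallest adjusted p of the genes named here. BAG proteins bind HSP70 and act on the release of its substrate. BAG6A had normalized counts of 6.17, 6.86 and 20.9 in control, 21.5, 10.98 and 42.5 in water deficit, 603, 1151 and 1948 in heat stress and 3044, 1815 and 1896 in combined stress. Its lowest heated library was far above its highest unheated one. The mean was 96.0-fold higher in heated leaves, and the log2 change was 6.64 ± 0.38 (adjusted p = 5.19e-06). PM37 and DNAJ, of the DnaJ type that delivers substrates to HSP70, were expressed at 5506 to 30985 in the heated libraries and were not called, with log2 changes of 0.59 ± 0.28 and 0.33 ± 0.39. DNAJ split the heated libraries. Heat stress libraries 1 and 2 held 30985 and 23503 and combined stress library 1 held 21946, against 5506 to 7164 in the 3 heated libraries of high clock index and 7908 to 14418 in unheated leaves.

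**Figure D1:**
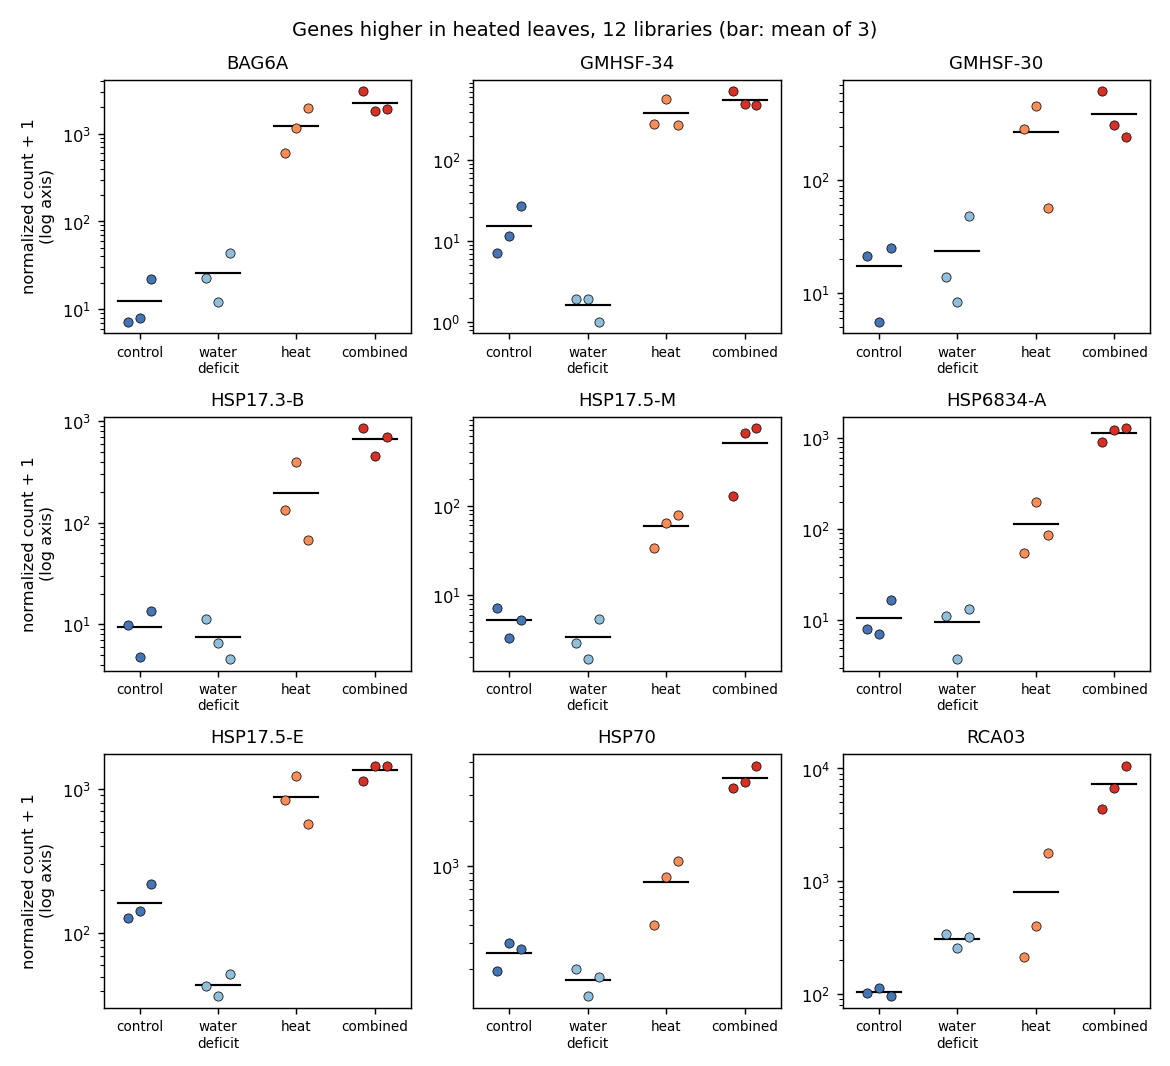
Normalized counts plus 1 on a log axis for 9 genes higher in heated leaves, with 1 point per library in each of the 4 groups and a bar at the mean of 3 libraries. For BAG6A the 6 unheated libraries lie at 6.17 to 42.5 and the 6 heated ones at 603 to 3044. For RCA03 the ranges of the heated and unheated libraries overlap.

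Heat shock factors moved more selectively. Of 38 genes, 35 passed the filter, and 9 of these were higher and 1 lower in heated leaves, with a median log2 change of 0.30. These were 25.7% and 2.86%, against 10% and 10.5% of all genes tested. GMHSF-34 was nearly silent in unheated leaves, with 6.17, 10.7 and 26.2 normalized counts in control and 0 to 0.933 in water deficit. In heated leaves it had 284, 580 and 276 under heat stress and 715, 495 and 478 under combined stress. The 2 sets of libraries did not overlap, and the log2 change was 6.63 ± 0.62 (adjusted p = 0.000107). GMHSF-30 had 4.57 to 47.0 unheated (median 16.7) and 56.3 to 615 heated (median 297), a log2 change of 4.05 ± 0.59 (adjusted p = 0.00101).

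Below these 2 genes the changes were small. The other 7 called higher had log2 changes between 0.59 for GMHSF-04 and 1.31 for GMHSF-22. The factor called lower was GMHSF-23, with 73.1 to 169 normalized counts unheated and 15.1 to 100.8 heated, and a log2 change of -1.62 ± 0.40 (adjusted p = 0.015). GMHSF-08, the factor with the highest mean, split as DNAJ did, at 3158, 3587 and 14175 in the heated libraries of low clock index and 212 to 531 in those of high clock index. Its log2 change over all libraries was -0.30 ± 0.90 (adjusted p = 0.844). Without the 3 heated libraries of low clock index, 7 factors were called higher and 7 lower, and without the 3 of high clock index 14 were higher and 1 lower.

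Genes of light capture and carbon fixation included calls in both directions. Of 8 members, all tested, 1 was higher in heated leaves and 2 were lower, with a median log2 change of 0.12. These were 12.5% and 25%, against 10% and 10.5% of all genes tested. RCA03, a Rubisco activase gene, had normalized counts of 101.3, 113 and 95.2 in control, 341, 254 and 323 in water deficit, 214, 401 and 1787 in heat stress and 4419, 6710 and 10619 in combined stress. A single heat stress library, at 214, lay within the unheated range. The log2 change was 3.43 ± 0.50 (adjusted p = 0.00101).

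The other Rubisco activase genes had higher mean counts and were not called. RCABETA ran from 56356 to 105504 unheated and from 56307 to 232169 heated (log2 change 0.14 ± 0.37), and RCA14 from 1955 to 2613 and from 1990 to 14445 (1.204 ± 0.46, adjusted p = 0.0846). LHCB1-7, a light-harvesting chlorophyll-binding protein, had 12375 to 55492 unheated, 14691 to 21989 under heat stress and 245 to 3277 under combined stress. The low values were those of combined stress, and the heat stress libraries lay within the unheated range. Its log2 change was -2.62 ± 0.79 (adjusted p = 0.0345), and the call was lost in 5 of the 12 fits that left out 1 library, with adjusted p up to 0.0784. RBCS-1, a small subunit of Rubisco, had 183227 to 432675 unheated and 48856 to 170814 heated, with no overlap. Its log2 change of -1.29 ± 0.43 was close to the threshold (adjusted p = 0.0482), and it was called in 1 of the same 12 fits. In leaf RNA as a whole, fewer cells of a type and less RNA per cell cannot be told apart.

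**Figure D2:**
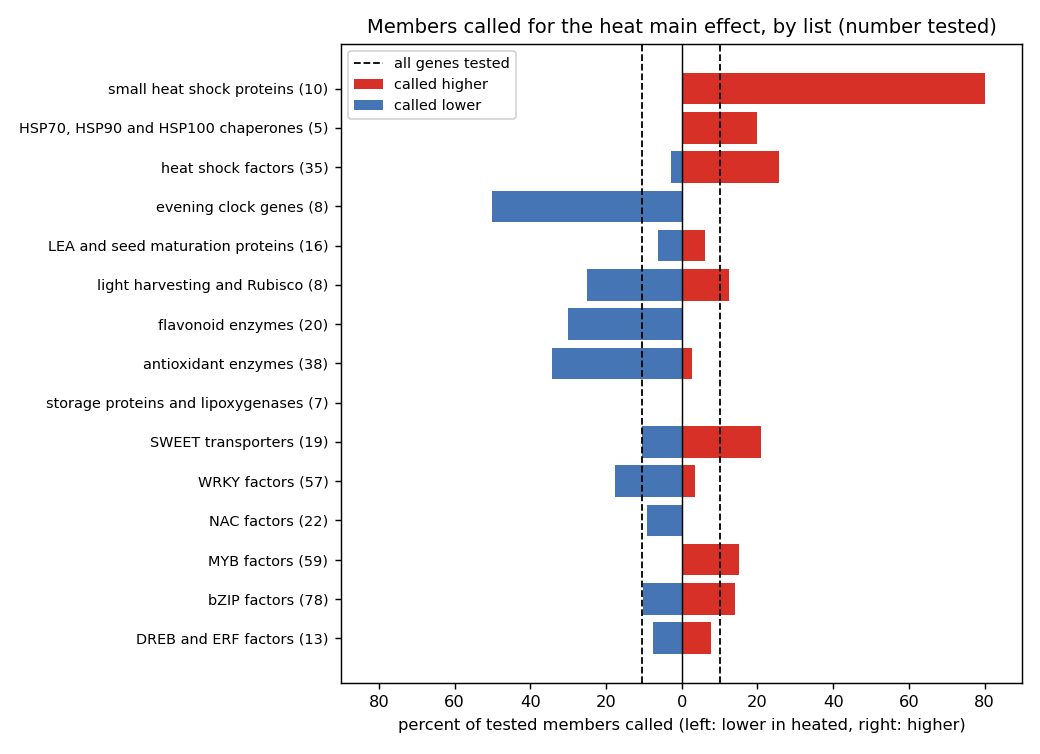
Percent of the tested members of each gene list called higher (right) or lower (left) in heated leaves, with the number tested in brackets and dashed lines at the share of all genes tested (10% higher, 10.5% lower). The small heat shock proteins reach farthest to the right, with 8 of 10 called higher, and the evening clock genes farthest to the left, with 4 of 8 called lower.

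Antioxidant and detoxifying enzymes were mostly lower where they were called. Of 43 members, 38 passed the filter, and 13 of these were lower and 1 higher in heated leaves, with a median log2 change of -0.62. These were 34.2% and 2.63%, against 10.5% and 10% of all genes tested. Glutathione transferases, which attach glutathione to toxic or oxidised compounds, made up 7 of the 13, a number that depends on how many of them the list holds. GSTU28 had normalized counts of 1047 to 1814 unheated (median 1448) and 197 to 747 heated (median 445). Its ranges did not overlap, and the log2 change was -1.72 ± 0.27 (adjusted p = 0.00142). GSTU30 fell from a median of 7251 to 3316 (log2 change -1.08, adjusted p = 0.00419) and GSTU47 from 10745 to 6817 (-0.84, adjusted p = 0.00624).

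Ferritins store iron inside plastids, and 2 of 3 were lower. SFERH-4 had normalized counts of 615, 660 and 611 in control, 833, 851 and 559 in water deficit, 56.7, 64.1 and 152 in heat stress and 499, 112 and 198 in combined stress. Combined stress library 1, at 499, came closest to the unheated range without reaching it. The log2 change was -2.32 ± 0.37 (adjusted p = 0.00165). SFERH-2 ran from 916 to 8749 unheated and from 67.8 to 1526 heated (log2 change -3.42 ± 0.78, adjusted p = 0.0102), whereas SFERH-3 ran from 3017 to 4584 and from 3353 to 6455 and was not called (0.39 ± 0.14, adjusted p = 0.0606).

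Superoxide dismutases, which convert superoxide to hydrogen peroxide, went both ways. SODB and SODB2 had high counts and were lower. SODB ran from 47842 to 63826 unheated and from 18123 to 41467 heated, and SODB2 from 67516 to 88843 and from 30665 to 52812, with log2 changes of -1.06 ± 0.23 and -0.92 ± 0.23 (adjusted p = 0.00859 and 0.0156). SOD1 was the single member of the list called higher, at 700.2 to 946 unheated and 1270.0 to 2580.0 heated, a log2 change of 1.16 ± 0.17 (adjusted p = 0.00113). In all 3 genes the heated and unheated libraries were fully apart. The catalases CAT1 and CAT3, which break down hydrogen peroxide, were lower by smaller amounts (log2 changes -0.42 and -0.63), and the catalase with the highest mean count, CAT4, was not called (0.33 ± 0.27, adjusted p = 0.416).

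Enzymes of the flavonoid and isoflavonoid pathway were lower or not called. Of 28 genes, 20 passed the filter, and 6 were lower and 0 higher, with a median log2 change of -0.62. Those lower were 30%, against 10.5% of all genes tested. CHI2-A, a chalcone isomerase, had normalized counts of 105, 107 and 118 in control, 193, 171 and 381 in water deficit, 18.9, 16.7 and 13.4 in heat stress and 62.8, 92.0 and 29.6 in combined stress. Every heated library was below every unheated one, and the log2 change was -2.37 ± 0.30 (adjusted p = 0.000456). CHI1A, of the same enzyme family, ran from 816 to 2925 unheated and from 306 to 712 heated (log2 change -1.34 ± 0.27, adjusted p = 0.00579). The others called lower were the coumarate ligases 4CL1 and 4CL2, the chalcone synthase CHS8 and CHI1B2, with log2 changes from -1.47 for 4CL2 to -0.92 for CHI1B2. IFR2, the gene of the list with the highest mean, had 3565 to 7118 unheated and 3560.0 to 6631 heated and was not called (log2 change -0.13 ± 0.16, adjusted p = 0.584).

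Outside the lists, the largest decreases among genes with a symbol included regulators and a cell wall protein. COL22, a CONSTANS-like gene of a family of light-regulated transcription factors, had normalized counts of 399, 709 and 911 in control, 193, 230 and 106 in water deficit, 55.5, 90.2 and 96.4 in heat stress and 9.91, 13.3 and 20.01 in combined stress. The 4 groups formed a descending order in which the lowest water deficit library, at 106, lay just above the highest heat stress library. The log2 change with heat was -3.26 ± 0.28 (adjusted p = 7.79e-05). MIR408A, a microRNA precursor, had 546, 451 and 509 in control, 592, 462 and 441 in water deficit, 13.9, 35.3 and 97.3 in heat stress and 41.3, 29.8 and 59.2 in combined stress. The unheated libraries differed little among themselves and stood apart from all heated ones, with a log2 change of -3.63 ± 0.36 (adjusted p = 0.000111). These are reads assigned to the precursor gene, not to the mature microRNA.

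GMDCL2A, a Dicer-like gene of the family that cuts double-stranded RNA into small RNAs, ran from 57.5 to 1155 unheated and from 4.13 to 34.4 heated (log2 change -3.72 ± 0.66, adjusted p = 0.00291). EXP2, an expansin, which loosens cell walls, ran from 337 to 1012 and from 4.80 to 227 (-3.21 ± 0.57, adjusted p = 0.0029). Neither gene had overlapping ranges, which the rule for naming them required. H-1, whose function the symbol does not give, ran from 694 to 1824 unheated and from 16.7 to 281 heated (-3.73 ± 0.49, adjusted p = 0.000573). WNK5, a kinase of the WNK family, ran from 106 to 268 and from 25.1 to 71.4 (-2.36 ± 0.30, adjusted p = 0.000468).

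**Figure D3:**
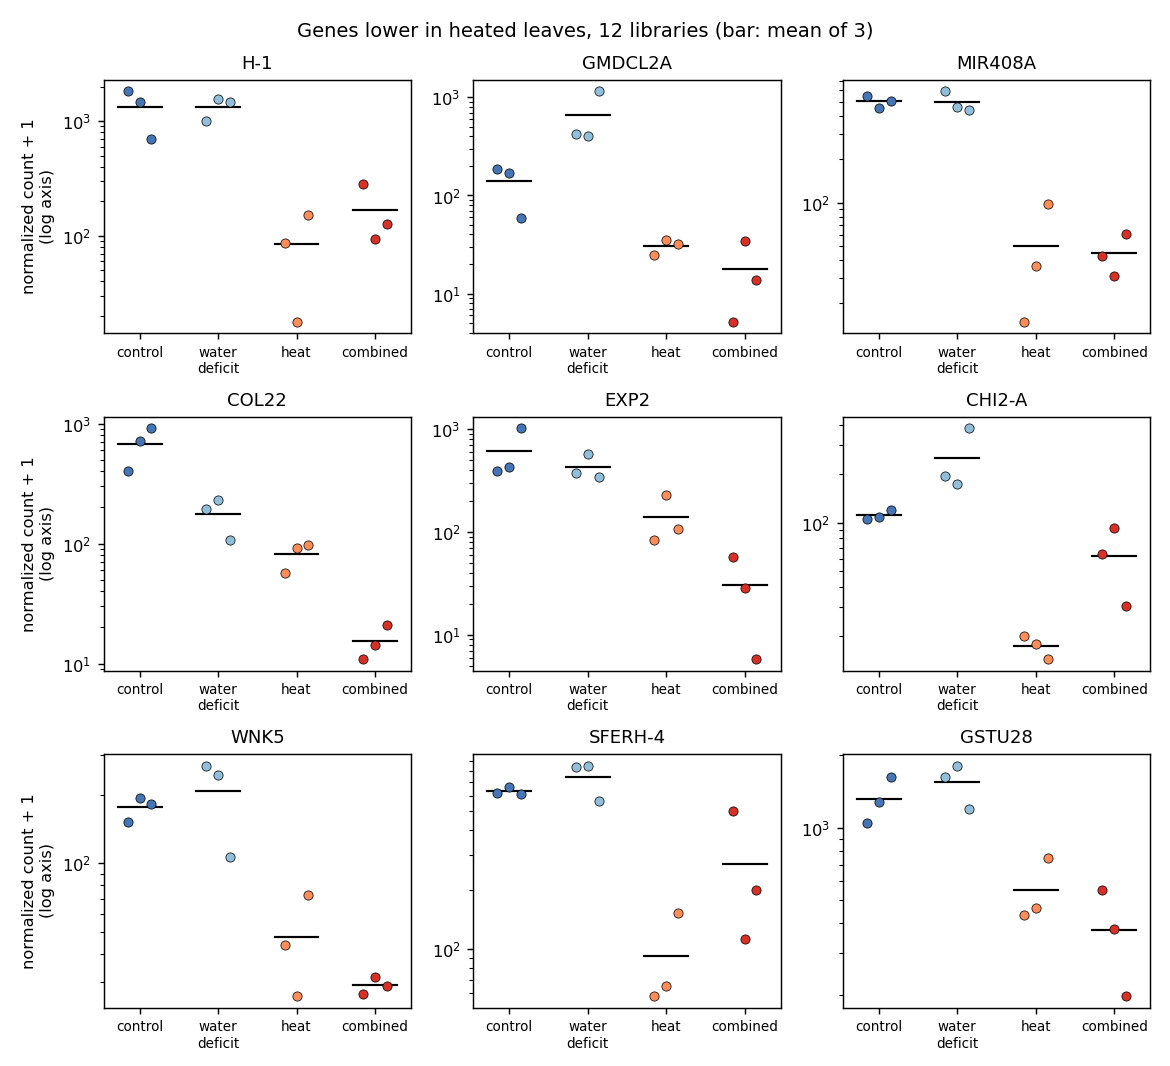
Normalized counts plus 1 on a log axis for 9 genes lower in heated leaves, with 1 point per library in each of the 4 groups and a bar at the mean of 3 libraries. For MIR408A the 6 unheated libraries lie at 441 to 592 and the 6 heated ones at 13.9 to 97.3. In none of the 9 genes do the heated and unheated libraries overlap, which was a condition for naming most of them.

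Of the 6 largest increases named, 4 were in genes known here only by an identifier, and so were the 6 largest decreases. LOC100500319, LOC100791705 and LOC111255647 had at most 3 reads in every unheated library. LOC100500319 reached 29.0, 119 and 57.2 in heat stress and 401, 1383 and 1238 in combined stress, at least 198-fold higher in the mean of heated leaves than the level of 3 reads per library. For LOC111255647 the heat stress libraries had 24.0, 49.3 and 19.7 and the combined stress libraries 1174, 1128 and 1783, and the bound was at least 257-fold. For LOC100791705 it was at least 81.9-fold. The limma adjusted p was 0.00013, 0.000174 and 8.09e-05. In all, 12 genes called higher had at most 3 reads in every unheated library, and 8 called lower had at most 3 reads in every heated one.

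LOC100775897 ran from 0 to 12.4 unheated and from 68.1 to 2067 heated (log2 change 6.09 ± 0.59, adjusted p = 0.000109). Among decreases, LOC100811394 ran from 234 to 1093 unheated and from 0 to 206 heated (-4.71 ± 1.11, adjusted p = 0.0115), and LOC100816164 from 65.5 to 666 and from 3.20 to 23.2 (-4.26 ± 0.63, adjusted p = 0.00109). All 3 showed no overlap, which the rule for naming them required. LOC100817652, LOC100800239, LOC100795195 and LOC100800765 were lower by 4.08 to 4.28 on the log2 scale, also without overlap (adjusted p = 0.000628 to 0.00785). The size of 3 of these decreases differed between the heated libraries of high and of low clock index, whose mix of water states differs too. Without the heated libraries of high clock index the log2 changes of LOC100811394, LOC100817652 and LOC100795195 were -2.36, -2.01 and -2.39, and without those of low clock index they were -6.73, -6.57 and -5.98, with an adjusted p under 0.05 each time.

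Transcription factor families had small median changes, although the WRKY factors called were mostly lower. WRKY factors, many of which act in defence, had 57 of 60 members tested, 2 higher and 10 lower. Their median log2 change was -0.34. Those higher were 3.509% and those lower 17.54%, against 10% and 10.5% of all genes tested. WRKY1 had 353, 378 and 262 normalized counts in control, 183, 150.1 and 206 in water deficit, 117, 133 and 46.4 in heat stress and 68.6, 34.8 and 75.2 in combined stress. It was lower in all heated libraries, with a log2 change of -1.75 ± 0.28 (adjusted p = 0.00156). WRKY51 ran from 164 to 255 unheated and from 104 to 139 heated (-0.81 ± 0.16, adjusted p = 0.00521). The count of WRKY genes called lower was 6 to 17 when single libraries were left out, 18 without the 3 heated libraries of low clock index and 7 without the 3 of high clock index.

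MYB factors had called members in the other direction, with 9 of 59 tested members higher and 0 lower and a median log2 change of 0.22. Those higher were 15.3%, against 10% of all genes tested. MYB183 ran from 583 to 884 unheated and from 969 to 1632 heated, without overlap (log2 change 0.88 ± 0.15, adjusted p = 0.00207). MYB158 ran from 635 to 1057 and from 814 to 2778, overlapping through combined stress library 1 (1.21 ± 0.25, adjusted p = 0.0062). Without the 3 heated libraries of low clock index 16 MYB genes were higher and 6 lower, and without the 3 of high clock index 2 were higher and 2 lower.

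Among 78 tested bZIP factors, 11 were higher (14.1%) and 8 lower (10.3%), against 10% and 10.5% of all genes tested. BZIP99 ran from 1129 to 1894 unheated and from 1911 to 2941 heated (0.86 ± 0.15, adjusted p = 0.00265). GMBZIP51 ran from 502 to 799 and from 856 to 1239 (0.68 ± 0.12, adjusted p = 0.003). Of 22 NAC factors, NAC5 and NAC6 were lower (9.09%) and 0 were higher. Of 13 DREB and ERF factors, GMERF036 was higher and ERF7 lower (7.69% each). None of the shares of the NAC, DREB and ERF factors exceeded those of all genes tested. Without the 3 heated libraries of low clock index 7 NAC genes were higher and 4 lower. Without the 3 of high clock index 2 NAC genes were higher and 3 lower. NAC6 had 454 to 629 normalized counts in control and 1193 to 4297 in water deficit. Each heated group lay below the unheated group of its water state, with 120 to 262 under heat stress and 464 to 989 under combined stress (log2 change -1.69 ± 0.31, adjusted p = 0.0037).

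Of 16 late embryogenesis and seed maturation genes tested, which belong to desiccation tolerance, PM23 was higher and LEA-1 lower in heated leaves. That is 6.25% each way, below the 10% higher and 10.5% lower of all genes tested. LEA-1 lay at 557 to 608 in control and at 203 to 346 in heat stress, while the water deficit libraries had 1719 to 4052 and the combined stress libraries 347 to 1271 (log2 change -1.55 ± 0.32, adjusted p = 0.00657). DEHYDRIN had 7.62 to 26.2 in control and 1.26 to 17.0 in heat stress, against 137 to 7872 in water deficit and 3982 to 28753 in combined stress, and was not called for heat (1.17 ± 1.04, adjusted p = 0.448). STS, listed with the raffinose sugars, was higher (1.09 ± 0.30, adjusted p = 0.0245), and GOLS, a galactinol synthase, was not called (1.25 ± 0.72, adjusted p = 0.237).

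Of 19 SWEET sugar transporters tested, 4 were higher (21.05%) and 2 lower (10.53%), against 10% and 10.5% of all genes tested. GMSWEET50 ran from 446 to 964 unheated and from 1099 to 2159 heated, without overlap (1.12 ± 0.21, adjusted p = 0.00348), and GMSWEET28 from 35.5 to 86.0 and from 8.93 to 39.0 (-1.49 ± 0.38, adjusted p = 0.0177). Of 4 aquaporins, 1 (25%) was lower, namely PIP1 (-1.71 ± 0.52, adjusted p = 0.0358), a call that edgeR did not make (adjusted p = 0.0824). No storage protein or lipoxygenase gene was called by limma among 7 tested. VSPA, a vegetative storage protein, ran from 11592 to 171358 unheated and from 2212 to 98131 heated (-1.49 ± 0.92, adjusted p = 0.271).

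The evening clock genes were lower where they were called, and they are also the genes that set the clock index. Of 10 genes, 8 were tested and 4 were called lower, namely GMLUXB, ELF3A, GMELF4A and GIGANTEA, and 0 were higher. Those lower were 50%, against 10.5% of all genes tested. GMLUXB had 324, 279 and 427 normalized counts in control, 317, 261 and 251 in water deficit, 122, 115 and 9.82 in heat stress and 337, 38.9 and 42.4 in combined stress. Its lowest values were in the 3 libraries of high clock index, and combined stress library 1 lay within the unheated range (log2 change -2.19 ± 0.64, adjusted p = 0.0299, or 0.103 by edgeR). Without the 3 heated libraries of high clock index 0 evening genes were called lower and 1 higher, and without the 3 of low clock index 5 were lower. The 3 morning genes were not called over all libraries. With the clock index as covariate, 8315 genes were called for heat over all libraries, 4129 higher and 4186 lower. What part the spread of the clock genes had in the other results was not tested further.

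Each water state was then taken by itself, which asks whether heat acted alike in watered plants and in plants under water deficit. These 2 comparisons share no libraries. Heat stress against control called 1031 genes (3.11%), 569 higher (1.72%) and 462 lower (1.39%). Combined stress against water deficit called 4221 (12.7%), 1945 higher (5.87%) and 2276 lower (6.87%). Direction was largely shared. Of the 569 genes higher in watered plants, 556 (97.7%) had the same sign under deficit, where 47.2% of all genes tested had that sign, and 394 (69.2%) were also called. Of the 462 lower, 437 (94.6%) had the same sign, against 52.8% of all genes tested, and 274 (59.3%) were also called. Read from the larger list, those 394 genes were 20.3% of the genes higher under deficit and those 274 were 12.04% of the genes lower.

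The change of the small heat shock proteins and of HSP70 was larger under water deficit in most cases, but no gene passed the test of that difference. Among the small heat shock proteins the median log2 change was 2.84 in watered plants and 4.94 under deficit. HSP23.9 and the chaperone GMBIP4 did not follow this order, with 1.47 and 1.41 in watered plants and 1.25 and 0.41 under deficit. HSP70 changed by 1.498 in watered plants and 4.53 under deficit, and the difference was 3.04 (limma adjusted p = 0.295). HSP17.5-E changed by 2.39 and 4.93 and LOC111255647 by 4.40 and 8.61, with the same adjusted p of 0.295 for the difference. BAG6A changed by 6.69 and 6.59, and MIR408A by -3.74 and -3.53. SFERH-4 changed more in watered plants, by -2.92 against -1.72 (adjusted p for the difference 0.604). LOC100808134 changed by -0.13 in watered plants and by -2.35 under deficit. It is named because its p for the difference was among the 3 smallest of the called genes (adjusted p = 0.295).

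Over all genes tested, 0 were called for a difference between water states by limma, where the smallest adjusted p was 0.167 and 3132 genes had an unadjusted p under 0.05. The count was also 0 with edgeR, 276 with DESeq2 and 1583 without heat stress library 3. Across all genes tested, the changes in the 2 water states had the same sign in 69.4%, with Pearson's r of 0.508 and Spearman's rho of 0.497, which describe agreement across genes that are not independent. Of the 6810 genes called over both states, 4360 had the larger change under deficit. The counts called in each state hang on single libraries. In watered plants 4742 genes were called without heat stress library 3 and 139 without control library 2, and under deficit 1233 were called without combined stress library 3.

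**Figure D4:**
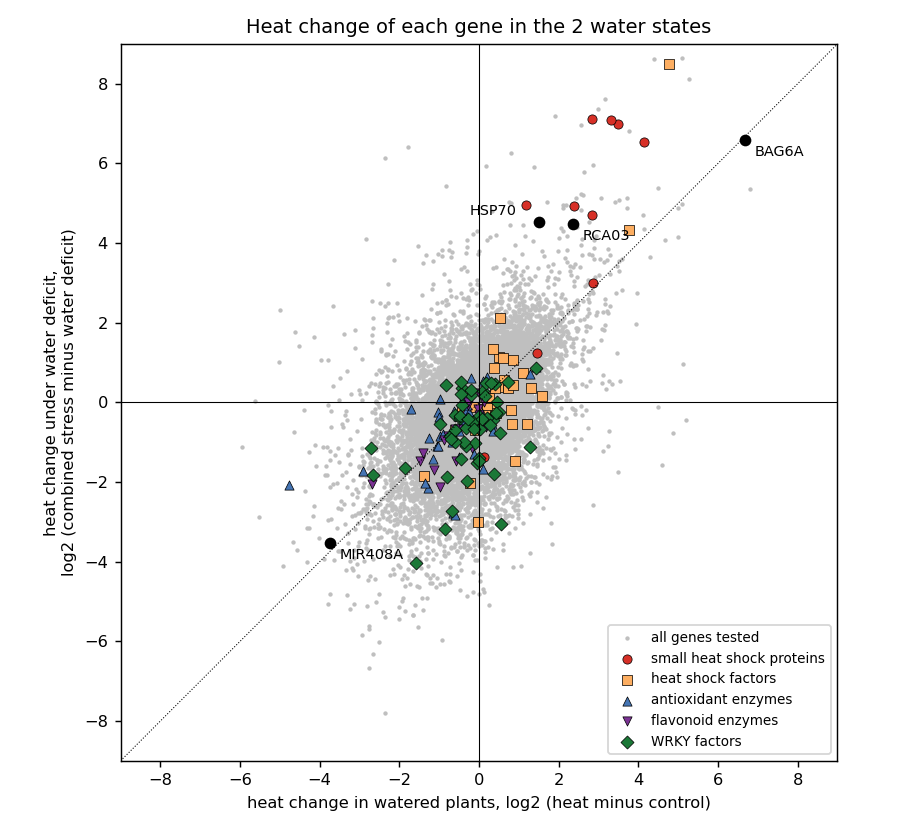
Log2 change with heat in watered plants (horizontal) and under water deficit (vertical) for every gene tested, in grey, with 5 gene lists in colour and 4 genes labelled. The dotted line marks equal change. BAG6A, at 6.69 and 6.59, and MIR408A, at -3.74 and -3.53, lie close to it, and most small heat shock proteins lie above it.

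Leaving out heated libraries by their clock index changed how many genes were called. Without the 3 heated libraries of low clock index, 11234 genes were called, 5410 higher and 5824 lower. Without the 3 of high clock index, 5414 were called, 2742 higher and 2672 lower. In the same direction in both fits were 2744 genes, of which 2742 were also called over all libraries, 1372 higher and 1370 lower. These 2 fits share the 6 unheated libraries. BAG6A had log2 changes of 6.80 and 6.58 in them, GMHSF-34 of 6.80 and 6.45, HSP17.3-B of 5.05 and 5.58, MIR408A of -3.07 and -4.09 and COL22 of -3.06 and -3.46, all with an adjusted p under 0.05. RCA03 had 4.53 without the libraries of low clock index and 2.41 without those of high clock index.

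Of the 52 named genes called over all libraries, 11 were not called without the 3 heated libraries of high clock index. These were ELF3A, GMLUXB, GMSWEET28, LHCB1-7, LOC100808134, MYB158, PIP1, PM23, RBCS-1, STS and WRKY57. Without the 3 of low clock index, ERF7 and GMERF036 were not called. Of the named genes not called over all libraries, 7 were called without the libraries of high clock index, namely DNAJ, GMBIP4, GMHSF-08, HSP23.9, LCL1, LCL4 and NAC2. Without those of low clock index 9 were called, namely DNAJ, DREB3, GMHSF-08, GMSWEET15, HSP90-1, LCL1, NAC2, PIP2 and VSPA. DNAJ, GMHSF-08, LCL1 and NAC2 were called in each of the 2 fits with opposite signs. LCL1, LCL4, ELF3A and GMLUXB help to form the clock index by which the libraries were split. Their changes between the 2 fits follow in part from that choice.

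**Figure D5:**
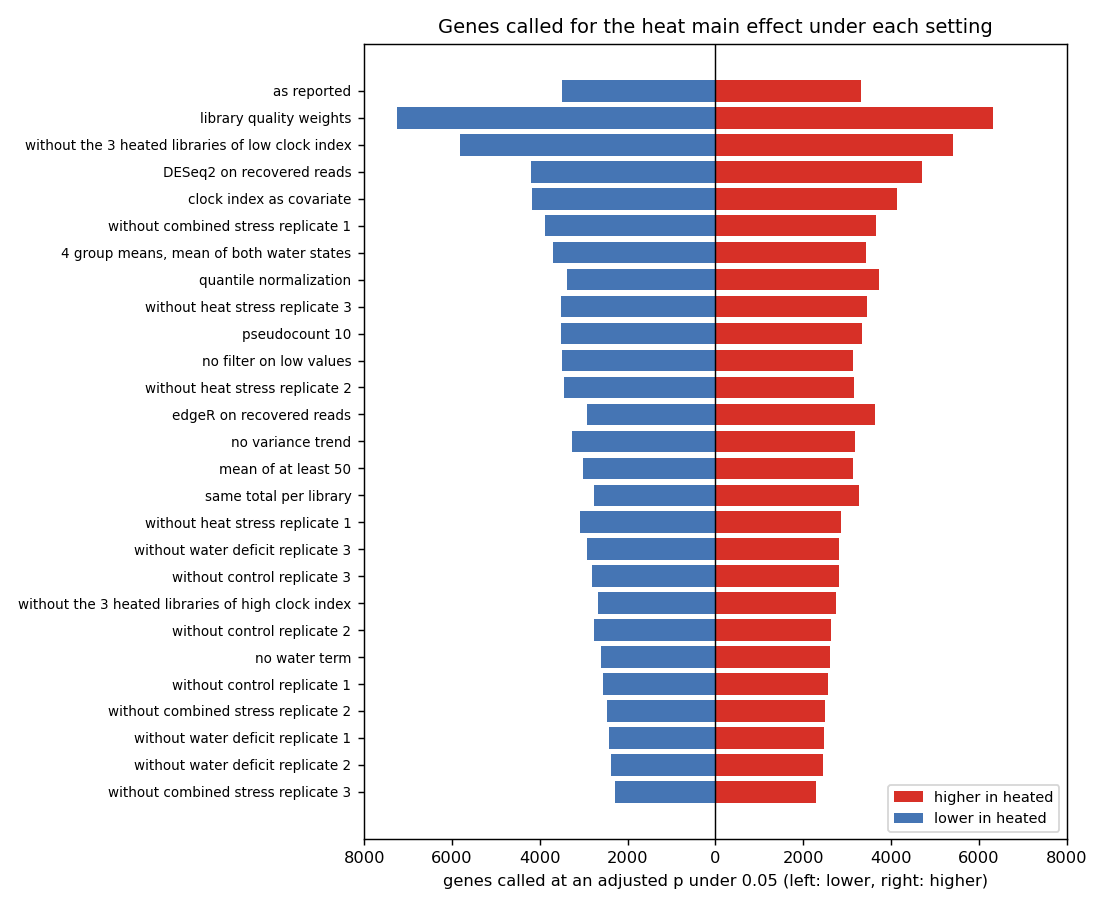
Number of genes called higher (right) and lower (left) in heated leaves under each setting, sorted by the total, with the reported analysis on top. The totals run from 4571 without combined stress library 3 to 13578 with library quality weights, and higher and lower genes stay close to balance throughout.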

How the data were processed

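The deposited values are the authors' normalized counts, a scaled signal for each gene in each library. DESeq2 1.20.0, STAR 2.4.0.1, cutadapt 1.18 and FastQC 0.11.7 appear in the submitters' processing notes, without role or order. The counting method, strand setting, annotation and genome build are not given in the sources used here, so reads of near-identical gene copies and of overlapping genes cannot be told apart. Dividing each column of the deposited signal by the value of 1 read gave whole read counts for 100% of the positive values, within 0.05 of a whole number and at most 6.2e-05 away. All 12 columns matched a sample, and 0 were left unused.

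The main test was limma 3.58.1 in R 4.3.3 on log2(normalized count + 1), with heat and water state as factors and no interaction, with a minimum mean of 10 per gene. It used a variance trend, two-sided tests and Benjamini-Hochberg adjustment over 33119 genes, and the threshold was an adjusted p of 0.05. Changes on this scale understate those of low genes. The 2 water states and their difference came from a fit of 4 group means. edgeR 4.0.16 (quasi-likelihood, TMM) and DESeq2 1.42.0 (outlier and independent filtering off) served as alternatives on the recovered reads. A floor of 3 reads per library, which covers counting error only, gave the bounds on folds, as the labels name no molecular identifiers that would mark independent molecules. On counts simulated for the heat comparison with 200 of 33119 genes changed, limma called 128 genes, found 41% of the 2-fold and 80% of the 4-fold changes, and 5.47% of its calls were false.

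Genes were named by a rule. Among called genes whose mean reached 100 and whose heated and unheated libraries did not overlap, it took the 6 largest increases and 6 largest decreases, and the 8 largest of each among genes with a symbol. It added from each list the 2 members of smallest p and the one of highest mean, and the 3 called genes of smallest p for the difference between water states. Other members appear by count, with a few chosen after their values were seen. Lists were formed from gene symbols, and 32053 (96.8%) of the tested symbols were found in a RefSeq table of the assembly Glycine_max_v4.0. The comparison, the lists and the clock index were chosen with earlier results of these data known. Replicate numbers follow the order of the records and pair no samples. A planned search of promoters for motifs and a match by product name were not run.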

Additional observations from a re-analysis of the deposited data

Results flagged for a closer look

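Among the 74 named genes, the 6 heated and the 6 unheated libraries were each searched for a value far from the rest, where the gap to the nearest library exceeded 0.625 of the whole range. This picked out 8 of 148 sets, and chance picks out about 1 in 20. In water deficit library 3, HSP23.9 was 3609 (next highest 1341), HSP90-1 was 15178 (next 8154), CHI1A was 2925 (next 1060.0) and BZIP99 was 1894 (next 1363), so that 4 of the 8 fell in this library. WRKY57 was lowest in water deficit library 1, at 4151, with the next at 6327. GMGIA was lowest in control library 3, at 11432, with the next at 15451. PIP1 was highest in combined stress library 1, at 203, with the next heated library at 31.6. BZIP126 was lowest in heat stress library 3, at 3636, with the next at 4685.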

How the results depend on the processing

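The count of 6810 genes ran from 4571 (without combined stress library 3) to 7526 (without combined stress library 1) when single libraries were left out, and 4042 genes (2054 higher, 1988 lower) were called in all 12 of those fits. It was 13578 with library quality weights, 8315 with the clock index as covariate and 11234 without the 3 heated libraries of low clock index. It was 6552 with edgeR, 8903 with DESeq2, 6032 at the same total per library and 7108 after quantile normalization, and under these 4 scalings 0 called genes changed sign. With edgeR 6169 and with DESeq2 6772 of the genes were called in the same direction.

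For water deficit the 2290 became 4464 with DESeq2 and 6309 with weights, and ran from 1413 to 3102 without single libraries. In watered plants the 1031 became 3323 with DESeq2, 3724 with the clock index as covariate, 10274 with weights and 6159 without the 3 heated libraries of high clock index, and ran from 139 to 4742 without single libraries. Under deficit the 4221 became 7082, 6718 and 13647 with the same 3 choices and 8711 without the 3 heated libraries of low clock index, and ran from 1233 to 6460. For the difference between water states the 0 became 276, 163 and 6629, 1 with a pseudocount of 10, 1010 and 4 without the heated libraries of high and of low clock index, and ran from 0 to 1583. The cause was not tested.

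Without the 3 heated libraries of low clock index, the log2 change was -0.60 for DNAJ, 0.74 for LCL1, itself part of the index, and -0.49 for NAC2. The bZIP median was -0.0012. Without the 3 of high clock index, GMHSF-08 had 2.02. Of 19 list medians, 6 had the opposite sign without the libraries of high clock index and 4 without those of low clock index, the bZIP median included. In 81 combinations of a named gene and a setting a call was lost. The calls of RBCS-1, PIP1, GMLUXB, ELF3A, LHCB1-7, ERF7 and LOC100808134 were lost in 5 to 11 of the 12 fits without 1 library. No paired analysis was possible because the replicate numbers were given in the order of the records and the columns carry no shared numbers. Depth limits mainly the genes near 3 reads, whose folds are bounds.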

Other observations

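Of 550 microRNA precursor genes, a list formed after values had been seen, 68 passed the filter on low values. Of these, 5 were higher and 7 lower in heated leaves, close to the 10% and 10.5% of all genes tested, and the median log2 change was 0.15. Without the 3 heated libraries of low clock index 21 were higher and 6 lower. Without the 3 of high clock index 5 were higher and 11 lower. In Arabidopsis, miR408, miR397 and miR398 act on mRNAs of copper proteins. MIR408C had normalized counts of 80.2 to 136 in the 6 unheated libraries and 6.31 to 25.6 in the 6 heated ones (log2 change -2.76 ± 0.31, limma adjusted p = 0.000225). MIR408D ran from 523 to 974 and from 192 to 374 (-1.43 ± 0.16, adjusted p = 0.000253), and MIR397A from 14.9 to 51.2 and from 0 to 7.14 (-3.38 ± 0.52, adjusted p = 0.00137). None of these, nor MIR408A, overlapped between heated and unheated libraries.

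Other members of these families were not called. MIR397B ran from 123 to 245 unheated and from 89.5 to 235 heated (-0.07 ± 0.26, adjusted p = 0.88), and MIR398C and MIR398D had log2 changes of -0.56 ± 0.44 and -0.68 ± 0.43. MIR4415A was lower in every heated library, from 287 to 375 down to 60.5 to 103 (-2.04 ± 0.16, adjusted p = 3.49e-05). MIR9758 was higher, from 3.66 to 19.5 up to 25.9 to 199 (3.06 ± 0.47, adjusted p = 0.00141).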
